A study of Caenorhabditis elegans with 15 samples.

Results

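Transcripts of 39 muscle genes of Caenorhabditis elegans were followed across wild-type animals and 3 mutant genotypes. The genes were taken from a given list of sarcomere, attachment and excitation components, matched by symbol to the WBcel235 annotation. All 39 were found among the 46926 genes of the deposited table. The libraries were polyA RNA-seq of whole animals at the L4 larval stage: 6 of wild type (genotype WT), 3 of mec-8 (e398) KO, 3 of u74 KO and 3 of u218 KO, each on a strain given as N2. The last 3 groups are called e398, u74 and u218 here. The sample labels name a gene for e398 alone, give no type of lesion, and do not say whether replicates came from separate cultures. The deposited table, however, is named as counts of MEC8 mutants, without saying whether this covers u74 and u218. The contrast of e398 with u74 and u218 can therefore not be read as one of mec-8 against other genes. The deposited values are a single averaged normalized count per gene and genotype, so there is no error and no n behind a value, and none of the differences given here could be tested.

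Body wall muscle of the worm is obliquely striated. Myosin thick filaments are anchored at M-lines and actin thin filaments at dense bodies, and integrin complexes tie these structures through the cell membrane to the basement membrane and the cuticle beyond. Contraction starts when voltage-gated calcium channels and the ryanodine receptor raise cytosolic calcium, which binds troponin C and frees actin for myosin. MEC-8 is an RNA-binding regulator of alternative splicing. It is known for its action on unc-52, which encodes the perlecan in the basement membrane under these attachments. Sums per gene, as deposited, do not separate splice forms.

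The list is wider than its tissue. Its defining body wall muscle members unc-54, myo-3 and unc-15 were abundant in every column, at 33351 normalized counts or more. The body wall muscle transcription factor gene hlh-1 averaged 310 in wild type and 345 in e398, and 228 in u74 and 600 in u218. Another muscle transcription factor gene, unc-120, averaged 941, 534, 944 and 1935 in the same order of columns, so that in e398 it was below wild type where hlh-1 was slightly above. Myosin genes myo-1 and myo-2, however, are known to be used in pharyngeal muscle, and several attachment and calcium genes act in other tissues too. In whole animals, fewer muscle cells and less RNA per cell cannot be told apart.

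The members spanned a wide range of abundance, from an average of 478 for dyb-1 in e398 to 1857066 for pat-10 in the same column. Their share of the column total was 3.93% for wild type, 4.41% for e398, 2.46% for u74 and 2.69% for u218. In e398, pat-10, unc-15 and unc-54 made up 69.2% of the members' sum, and in u218 the 3 most abundant members, unc-54, unc-15 and lev-11, made up 40.7%. Without pat-10, unc-15 and unc-54 the sums were 1404922 in wild type and 1719799 in e398, and 898868 in u74 and 1137627 in u218. The sums kept the order of the genotypes without these members, but the shares of the column total did not, at 1.45% for wild type, 1.36% for e398, 1.43% for u74 and 1.65% for u218. The high share of e398 thus rested on the 3 most abundant members.

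A feature of the wild-type column bears on every ratio to it. The lowest nonzero values recur, since a gene with a single read in a single library takes the inverse of that library's size factor divided by the number of libraries, and size factors were read from these recurring values. The 6 wild-type factors fell into 3 of 0.471 to 0.531 and 3 of 1.59 to 1.82. The e398 factors were 0.476 to 0.685, those of u74 1.46 to 1.95 and those of u218 0.831 to 1.99. By this measure 3 wild-type libraries therefore had factors like those of e398, and the others had factors like those of u74 and all but 1 of u218. The labels give no batch, and because the genotypes differ in size factor, whatever differs with it cannot be told apart from the contrast of e398 with u74 and u218. The transcript of mec-8 itself averaged 1956 in wild type and 1069.6 in e398, and 2239 in u74 and 3619.8 in u218.

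Wild type lay close to midway between e398 and the other mutants for the members. The arithmetic midpoint of the e398 average and the mean of u74 and u218 was compared with the wild-type average, a measure chosen after the levels were seen. All 39 wild-type averages lay within 1.3-fold of it, with ratios from 0.834 for dyb-1 to 1.16 for unc-22 and a median of 1.02. Of the 22 members for which e398 and the other mutants were at least 2-fold apart, again all 22 were within 1.3-fold. Among all genes with the same gap, 66.6% of 11504 were, and among all genes whatever the gap 71.7% of 17770. Of the other muscle genes described further on, 47 of 48 were within 1.3-fold, so this closeness was not limited to the members. For the paramyosin gene unc-15, e398 averaged 1087272 and the midpoint was 624704, against 649147 in wild type. For the zinc-finger M-line gene unc-98 the midpoint was 6593 and wild type averaged 6713. For the regulatory light chain gene mlc-2, where e398 was the low column, the midpoint was 33617 and wild type averaged 32038. The wild-type libraries of members could not be separated, so the 2 sets of wild-type libraries were not compared gene by gene. The contrasts between mutants, which do not use that column, are therefore given beside the ratios to wild type.

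**Figure D1:**
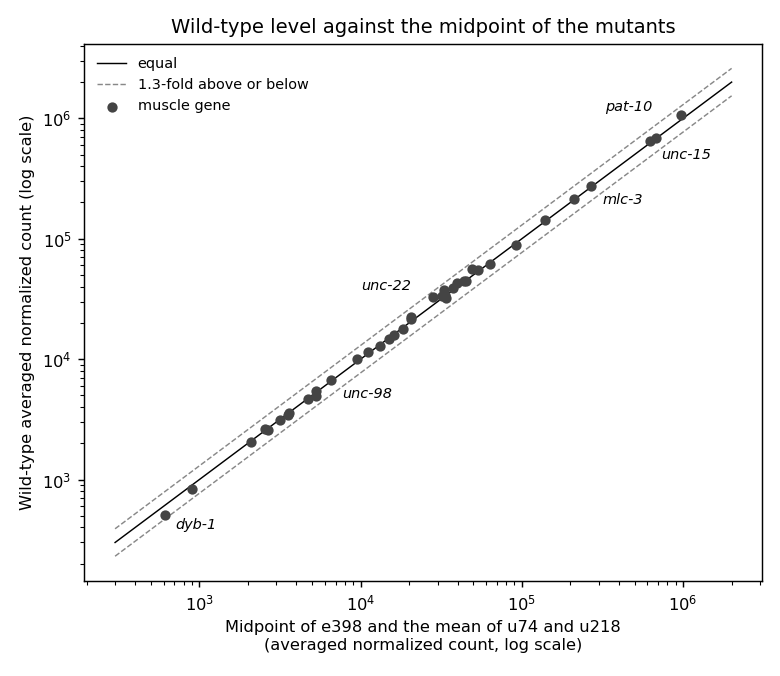
Wild-type averaged normalized count of each of the 39 muscle genes (vertical, log scale) against the midpoint of the e398 average and the mean of the u74 and u218 averages (horizontal, log scale). Every gene lies between the dashed lines at 1.3-fold, from 0.834 for dyb-1 to 1.16 for unc-22.

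Levels came in opposed orders. In 15 of 39 members (38.5%) e398 was highest, wild type next and u74 and u218 lowest. Of 17771 genes at 20 or more in any column, 32.0% also had this order. The 15 were unc-54, myo-3, myo-1, myo-2, unc-15, mlc-1, mlc-3, lev-11, pat-10, unc-89, ttn-1, unc-112, unc-98, zyx-1 and unc-68. In another 15 (38.5%) the order was the reverse, with e398 lowest and u74 and u218 above wild type, against 25.4% of all genes. These were mlc-2, unc-45, unc-27, unc-60, unc-87, unc-22, dim-1, pat-2, pat-3, pat-4, pat-6, unc-95, unc-96, dyb-1 and egl-19. The remaining 9 had other orders. The middle place of wild type in these orders is not separate from its closeness to the midpoint, given above. The highest column was less than 2-fold above the lowest for 13 members, and at least 4-fold above it for 8. Such spans were not counted over all genes, so these counts do not set the members apart.

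**Figure D2:**
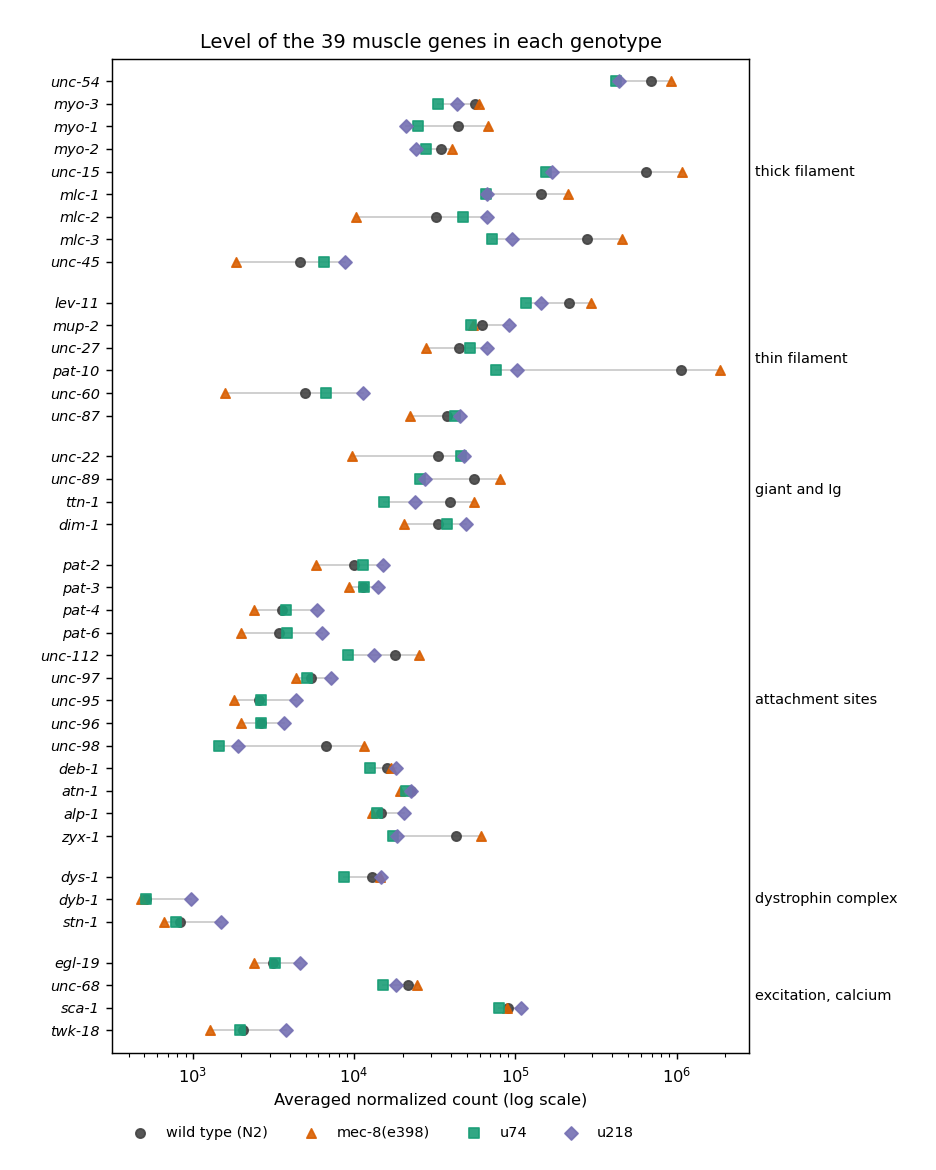
Averaged normalized count (horizontal, log scale) of each muscle gene in wild type, e398, u74 and u218, grouped by the role of its product; a grey line joins the lowest and highest column. The widest span is that of pat-10, 24.4-fold, and the narrowest that of atn-1, 1.17-fold.

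Thick filament genes mostly followed the first order. Of 9, 7 had e398 highest and u74 and u218 lowest (77.8%, against 32.0% of all genes). The reverse held for mlc-2 and unc-45 (22.2%, against 25.4% of all genes). The major body wall myosin heavy chain gene unc-54 averaged 689726 in wild type and 924330.1 in e398, and 419905 in u74 and 440968 in u218. The log2 ratios of unc-54 to wild type were 0.42, -0.72 and -0.65, all short of 2-fold. Its partner myo-3, whose heavy chain forms the middle of the same filaments, averaged 56214, 59455, 33351 and 43613 in that order of columns. Per kilobase of merged exon, the ratio of unc-54 to myo-3 was 12.1 in wild type and 15.3 in e398, and 12.4 in u74 and 9.95 in u218, a spread of 1.54-fold that no scaling of columns can alter. The ratios of myo-1 to myo-2 and of mup-2 to unc-27, given further on, had spreads of 1.93-fold and 1.94-fold.

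Paramyosin and the essential light chain did not keep the proportion of the heavy chain gene unc-54. Paramyosin, the core protein of the thick filament, is encoded by unc-15 (chromosome I, 7376604 to 7383197, minus strand, WBcel235). Its average was 649147 in wild type and 1087272 in e398, and 155996 in u74 and 168278 in u218, so that u74 and u218 lay together far below the others. The log2 ratios to wild type were 0.74, -2.06 and -1.95. Per kilobase, the ratio of unc-15 to unc-54 was 1.71 in wild type and 2.13 in e398, and 0.673 in u74 and 0.691 in u218, a pair chosen after its values were seen. The essential light chain gene mlc-3 (chromosome III, 5565025 to 5567382, plus strand) averaged 276488, 455929, 72049 and 95668, with log2 ratios of 0.72, -1.94 and -1.53.

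The regulatory light chain genes mlc-1 and mlc-2 lie close together on chromosome X, on opposite strands, and stood in opposite orders. For mlc-1 (17459210 to 17460778, plus strand) the averages were 143621 in wild type and 211571 in e398, and 65960.3 in u74 and 67049 in u218. For mlc-2 (17455792 to 17456586, minus strand) they were 32038, 10223, 47252 and 66769. One gene was therefore highest where the other was lowest. Per kilobase, the ratio of mlc-1 to mlc-2 was 2.49 in wild type and 11.5 in e398, and 0.775 in u74 and 0.557 in u218, a spread of 20.6-fold. These genes encode near-identical proteins, and the extent to which their reads were shared in counting is not known. An annotated gene on the opposite strand, C36E6.2, overlaps 12.0% of the exon length of mlc-2. Since strandedness is not given in the sources used here, its reads are not separable from those of mlc-2.

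The pharyngeal heavy chain genes had the order of unc-54, apart from that of u74 and u218. The gene myo-1 averaged 44236 in wild type and 67306 in e398, and 25025 in u74 and 20844 in u218, and myo-2 averaged 34352, 40670.5, 27753 and 24249. Only the u218 ratio of myo-1 to wild type, -1.09, passed 2-fold. It no longer did so after recentring on the median of all genes, after rescaling by a trimmed mean of log ratios, or with equal column totals. Per kilobase the ratio of myo-1 to myo-2 was 1.26, 1.62, 0.885 and 0.843 in the same order of columns. The myosin chaperone gene unc-45 (chromosome III, 491547 to 502625, plus strand) was lowest in e398, at 1857, against 4622 in wild type, 6524 in u74 and 8756 in u218. Its log2 ratio of u218 to e398 was 2.24.

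**Figure D3:**
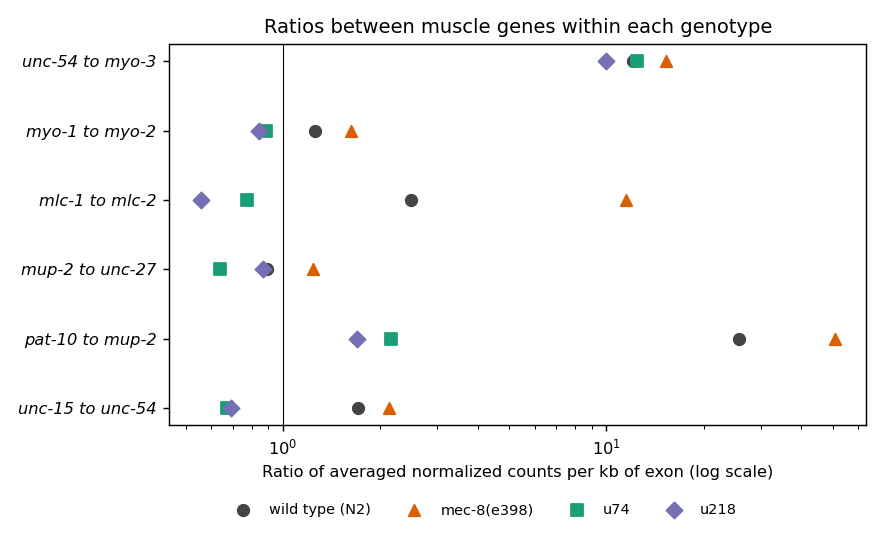
Ratios between pairs of muscle genes within each genotype, in averaged normalized counts per kilobase of exon (horizontal, log scale), which no scaling of whole columns can change. The ratio of unc-54 to myo-3 ran from 9.95 to 15.3, while that of mlc-1 to mlc-2 ran from 0.557 to 11.5 and that of pat-10 to mup-2 from 1.69 to 50.8.

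Among the thin filament members, troponin C stood apart from the 2 other troponin genes, mup-2 and unc-27. Troponin C of body wall muscle is encoded by pat-10 (chromosome I, 5018783 to 5020358, minus strand), the member with the widest span. It averaged 1071314 in wild type and 1857066 in e398, and 75983 in u74 and 102595 in u218. The u74 and u218 columns were both more than 4-fold below wild type, with log2 ratios of -3.82 and -3.38, and the ratio of u74 to e398 was -4.61. Troponin T, the tropomyosin-binding subunit, is encoded by mup-2, which averaged 62280.4, 54680.0, 52731 and 90724. Troponin I, the inhibitory subunit, is encoded by unc-27, which averaged 44422, 28115, 52702 and 66368. Neither approached the span of pat-10, at 1.72-fold for mup-2 and 2.36-fold for unc-27. Troponin genes of the other muscle list, described further on, spanned 1.45-fold for tni-3 to 5.79-fold for tni-4. In tni-4 e398 was the lowest column, while tnc-2 spanned 5.28-fold in the order of pat-10. Per kilobase, the ratio of pat-10 to mup-2 was 25.7 in wild type and 50.8 in e398, and 2.16 in u74 and 1.69 in u218, a pair also chosen after its values were seen. The ratio of mup-2 to unc-27 stayed between 0.637 and 1.24. No annotated gene overlaps the exons of pat-10, mup-2 or unc-27.

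The tropomyosin gene lev-11 had the order of pat-10 with a smaller span, at 214104 in wild type and 292853 in e398, and 116350.3 in u74 and 144408 in u218. The annotation lists 20 transcripts for lev-11, and their shares cannot be read from a sum per gene. The actin-depolymerizing factor gene unc-60 (chromosome V, 1475086 to 1479576, plus strand) had the reverse order, at 4942, 1591, 6649.6 and 11299. Its log2 ratio was -1.63 in e398 and 1.19 in u218 against wild type. A same-strand gene, F53E2.2, overlaps 7.81% of its exon length. The calponin-related actin-bundling gene unc-87 averaged 37428, 22208, 42224 and 45338, within 2.04-fold.

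The giant sarcomere proteins also split. Twitchin, a giant kinase of the thick filament, is encoded by unc-22 (chromosome IV, 11972697 to 12011007, minus strand). Its average was 32935 in wild type and 9725 in e398, and 45948 in u74 and 47707 in u218, the lowest ratio of any member in e398 (-1.76). The M-line obscurin gene unc-89 averaged 55038, 80692, 25792 and 27359.9. The titin-related gene ttn-1 averaged 39083, 55266, 15283 and 23887. For these giants e398 was the high column, where for unc-22 it was the low column. Long genes were thus found in either order, the merged exons of unc-22, unc-89 and ttn-1 spanning 23368, 25942 and 56044 bases. The immunoglobulin-repeat gene dim-1, a thin filament stabilizer, averaged 33269.8, 20337, 37789.8 and 49424.

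Spans of the integrin attachment genes ran from 1.17-fold for atn-1 to 7.92-fold for unc-98, with a median of 2.41-fold, close to the 2.44-fold of the thin filament genes. Of 13, 7 had a highest column at least 2-fold above the lowest, a share not counted over all genes. The integrin alpha subunit gene pat-2 averaged 10004 in wild type and 5805 in e398, and 11332 in u74 and 15065 in u218, and the beta subunit gene pat-3 averaged 11364, 9326, 11463 and 14033. The integrin-linked kinase gene pat-4, at 3573, 2388, 3766 and 5914, and the parvin gene pat-6, at 3426, 1973, 3859 and 6301, had the same order. This order, lowest in e398 and highest in u218, also held for unc-97, encoding the PINCH adaptor that binds the kinase, although its u74 average of 5124 was just below its wild-type average of 5438. The kindlin gene unc-112, whose product acts with PAT-4 and PAT-6 at integrin, had another order, at 17905, 25218, 9146 and 13291. Its ratio of u74 to e398 was -1.46, against 0.66 for pat-4 and 0.97 for pat-6. An opposite-strand gene, gasr-8, overlaps 4.91% of the exon length of unc-112.

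M-line and dense body proteins differed likewise within a complex. The gene unc-98 (chromosome X, 7570374 to 7573619, minus strand) averaged 6713 in wild type and 11509 in e398, and 1453 in u74 and 1902 in u218, a span of 7.92-fold. Its M-line partner unc-96 averaged 2633, 1979, 2661 and 3652, and the LIM-domain gene unc-95 averaged 2568, 1809, 2638 and 4359.8. At the dense body, the zyxin gene zyx-1 averaged 42959, 60868, 17364 and 18487. The actin-anchoring genes were the most even, with alpha-actinin atn-1 at 22478, 19174, 20937 and 22484, within 1.17-fold. Vinculin deb-1 averaged 15889, 16952, 12624 and 18121, and the ALP/Enigma gene alp-1 averaged 14613, 12958, 13881 and 20444.

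Dystrophin complex and excitation genes had spans of 1.38-fold to 2.94-fold, and u218 was their highest column except for unc-68. Dystrophin, which links actin to the membrane, is encoded by dys-1 and averaged 12907 in wild type and 14493 in e398, and 8665 in u74 and 14772 in u218. The dystrobrevin gene dyb-1 averaged 508, 478, 510 and 968, and the syntrophin gene stn-1 averaged 834, 662, 787 and 1499.9. For dyb-1 and stn-1 u218 was well above 3 columns that lay close together. An opposite-strand gene, F30A10.9, overlaps 14.0% of the exon length of stn-1.

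The muscle L-type calcium channel gene egl-19 averaged 3118 in wild type and 2381 in e398, and 3224 in u74 and 4637 in u218. The ryanodine receptor gene unc-68, whose product releases calcium from the sarcoplasmic reticulum, averaged 21434, 24502, 15073 and 18196. The calcium pump gene sca-1, which refills that store, had one of the narrowest spans, at 89433, 89211, 79014 and 109040.2. The potassium leak channel gene twk-18 averaged 2053, 1284, 1962 and 3776, the widest span of the excitation genes at 2.94-fold.

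Counted against all genes, few members passed 2-fold from wild type. Genes with an average of 20 or more in either column were compared by log2((average + 1)/(average + 1)). In e398, 0 of 39 members were at least 2-fold higher, against 11.4% of 17398 genes, and 4 were lower (mlc-2, unc-45, unc-60 and unc-22), against 19.9%. The median ratio of the members was -0.17, and that of all genes was -0.05. In u74, 0 were higher, against 6.47% of 17004 genes, and 8 were lower, against 29.0%. These 8 were unc-15, mlc-1, mlc-3, pat-10, unc-89, ttn-1, unc-98 and zyx-1, and the medians were -0.10 and -0.07.

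In u218, 2 members were higher, mlc-2 and unc-60, against 10.4% of 17087 genes. The 8 lower members, against 35.8% of genes, were myo-1, unc-15, mlc-1, mlc-3, pat-10, unc-89, unc-98 and zyx-1. The members' median was 0.29 and that of all genes was -0.26. This split depended on the scaling: 8 were higher and 4 lower after recentring on that median, 9 and 4 after rescaling by a trimmed mean of log ratios, and 15 and 4 with equal column totals. The higher members were 20.5%, 23.1% and 38.5% under these scalings, against 17.3%, 18.6% and 17.4% of all genes. The 4 lower members were 10.3% under each, against 32.1%, 31.5% and 19.3% of all genes. In u74 with equal column totals, 4 were higher (10.3%, against 23.0% of all genes) and 4 lower (10.3%, against 13.1%). Across the deposited scaling and those 3 others, unc-15, mlc-3, pat-10 and unc-98 were at least 2-fold below wild type in both u74 and u218, and mlc-2, unc-45, unc-60 and unc-22 in e398. The 3 comparisons share the wild-type column.

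Between e398 and the other mutants the gaps were wider. In u74 against e398, 4 members were at least 2-fold higher, mlc-2, unc-45, unc-60 and unc-22, against 27.8% of 17376 genes. Another 12 were lower, against 37.2%: unc-54, myo-1, unc-15, mlc-1, mlc-3, lev-11, pat-10, unc-89, ttn-1, unc-112, unc-98 and zyx-1. In u218 against e398, 14 were higher, against 26.9% of 17255 genes, and 11 lower, against 40.7%. With equal column totals only unc-15, mlc-3, pat-10 and unc-98 stayed lower in either contrast. The higher members in u74 against e398 grew in number with the scaling, to 9 (23.1%) after recentring or the trimmed mean rescaling, against 31.5% and 32.2% of all genes, and to 19 with equal totals (48.7%, against 38.9% of all genes). In u218 against e398 they were 35.9% of the members as deposited and 41.0% to 56.4% under the other scalings, above the share of all genes in each. The lower share was below that of all genes under every scaling in both contrasts. As columns, u74 and u218 share the e398 column here.

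**Figure D4:**
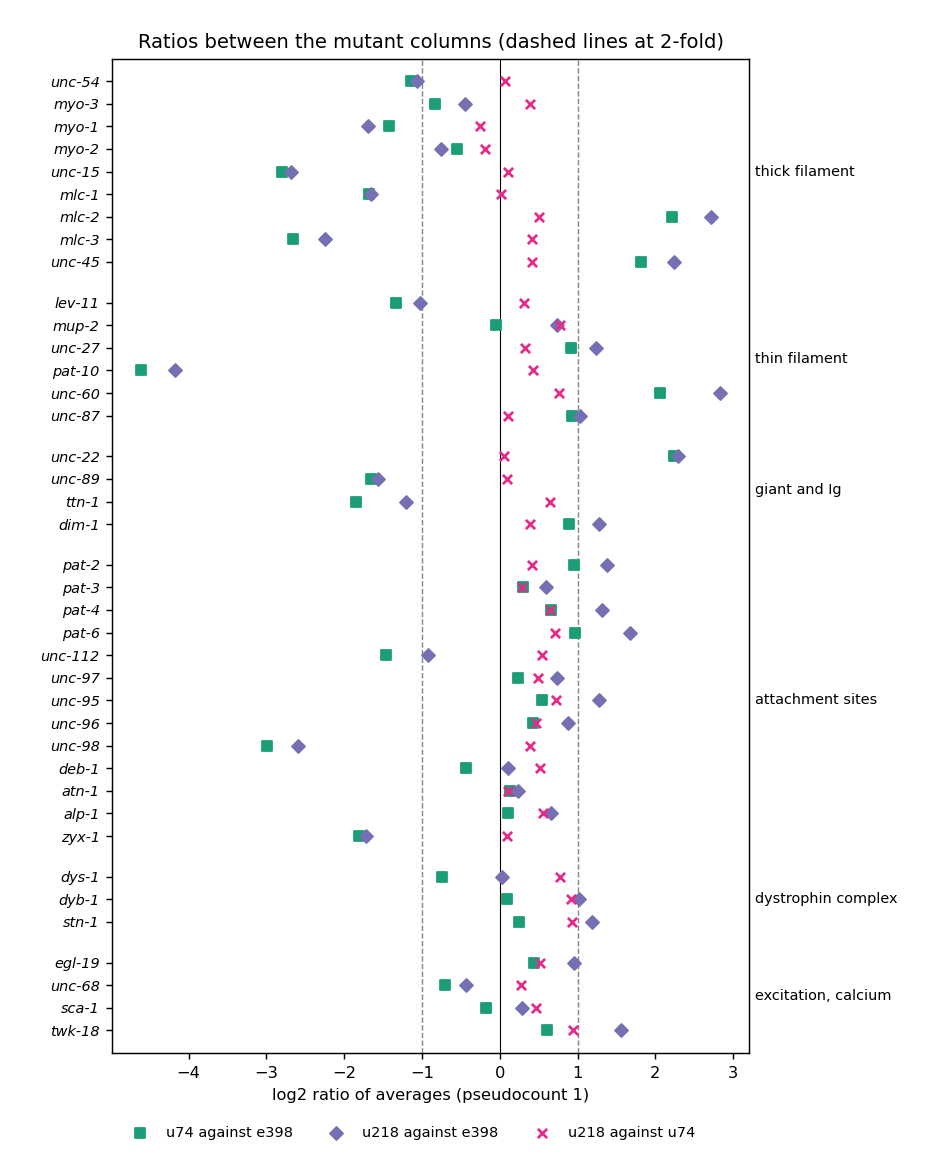
Log2 ratios of averages between mutant columns for the 39 muscle genes, with dashed lines at 2-fold. Ratios of u218 to u74 (crosses) lie between -0.26 and 0.94, while those of u74 and u218 to e398 run from -4.61 for pat-10 to 2.83 for unc-60.

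The u218 and u74 columns lay close together for the 39 members. Of 39 members, 0 were at least 2-fold higher in u218 than in u74, against 18.7% of 16279 genes, and 0 lower, against 20.6%. Among the 10340 genes at an average of 500 or more in either column, a floor chosen after the data were seen that all 39 members passed, the shares were 14.0% and 17.9%. The members' median log2 ratio was 0.42, and that of all genes was 0.15. Ratios ran from -0.26 for myo-1 to 0.94 for twk-18, with stn-1 (0.93) and dyb-1 (0.92) next. The other muscle genes were not as close: 9 of 48 were higher (18.8%) and 2 lower (4.17%), with ratios from -1.82 for cex-1 to 1.39 for hlh-1. With the trimmed mean rescaling 3 members, dyb-1, stn-1 and twk-18, were at least 2-fold higher (7.69%, against 22.8% of all genes). As deposited, 37 members were higher in u218 and 2 lower, the pharyngeal heavy chain genes myo-1 and myo-2. After recentring, and with equal totals, 10 were below 0, unc-54, unc-15, mlc-1, unc-87, unc-22, unc-89, atn-1 and zyx-1 with them. The share of all genes above or below 0 was not counted, and their median as deposited, 0.15, was also above 0.

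**Figure D5:**
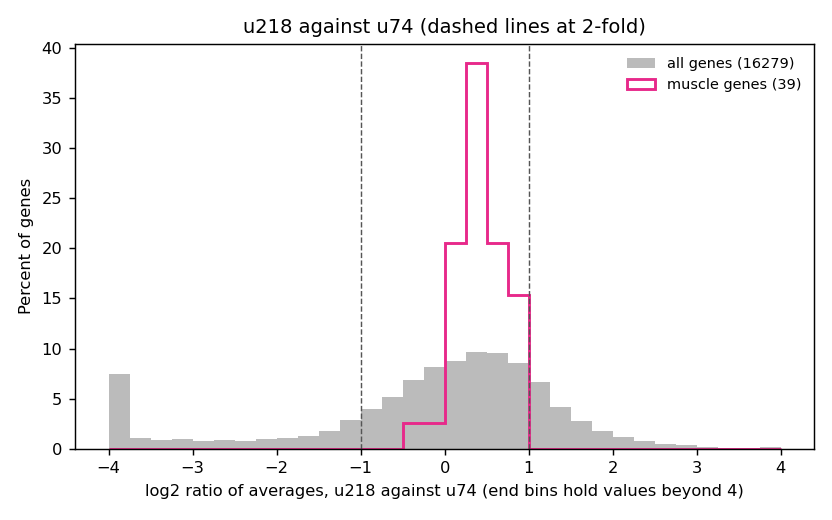
Distribution of the log2 ratio of u218 to u74 averages, as a percentage of 16279 genes at 20 or more in either column (grey) and of the 39 muscle genes (outline), with dashed lines at 2-fold. All muscle genes lie inside the lines, while 18.7% of all genes are higher and 20.6% lower.

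What the members on each side share was examined for the u74 to e398 contrast. The 12 lower members had a median merged exon length of 2694 bases (979 to 56044) and the 23 in between had 2483 bases (933 to 16197). The 4 higher members had 2084 bases (641 to 23368). The 12 lower members were more abundant, with a median of 84635 over the mean of the columns, against 12709 and 20100. Of the 12, 6 lie on chromosome I, as do 5 of the 23 and 0 of the 4. An opposite-strand gene overlaps an exon of 2 of the 12, 8 of the 23 and 2 of the 4. Chromosome and overlap were not counted over all genes. Over the 39 genes, Spearman's rho with the log2 ratio was -0.48 for mean level, -0.32 for the number of annotated transcripts and -0.20 for exon length. These are descriptions over genes measured in the same libraries, and the mean level contains the columns compared.

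Other muscle genes, 50 of 51 listed ones being found, showed the same opposed orders. Of the 48 that passed the filter, 24 had e398 highest and u74 and u218 lowest, and 11 had the reverse. Most abundant were the actin gene act-4 and the calponin-family genes clik-1 and cpn-3. The average of act-4 was 1119815 in wild type and 1964057 in e398, and 158224 in u74 and 157957 in u218. That of clik-1 was 978151, 1802820, 70763 and 96655. The other actin genes did not follow. Averages of act-1 stayed between 33028 and 38948 and those of act-3 between 36638 and 40854. For act-2, e398 was lowest at 29405 and u74 highest at 76165, whereas act-4 was highest in e398. The act genes are near-identical in sequence, so their split of reads is uncertain.

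In u74 against wild type 19 of these 48 genes were lower (39.6%, against 29.0% of all genes) and 0 higher, with a median of -0.58 against -0.07. In u218 16 were lower (33.3%, against 35.8%) and 5 higher (10.4%, as of all genes), with a median of -0.23 against -0.26, so that the u218 values were near the background. In e398 4 were lower (8.33%, against 19.9%) and 0 higher, with a median of 0.11. The sarcoglycan genes sgca-1 and sgcb-1, membrane partners of dystrophin, had log2 ratios of -2.74 and -3.12 in u74. The dystrophin-associated gene islo-1 had -3.33 there. These lay far below dys-1 (-0.57), dyb-1 (0.01) and stn-1 (-0.08), their partners among the members. Of the others listed with that complex, sgn-1 had -2.42, but dyc-1 had -0.75, close to dys-1. Among subunits of the levamisole acetylcholine receptor, the receptor that excites muscle at the neuromuscular junction, unc-38 averaged 1301, 2019, 228 and 502 in the order wild type, e398, u74, u218. The subunit gene unc-63 averaged 256, 68.7, 372 and 547, and unc-29 averaged 298, 260, 303 and 476. The subunit genes lev-1, at 2993, 4279.6, 497 and 1159, and lev-8, at 456, 482, 212 and 446, had the order of unc-38. The span was 7.96-fold for unc-63 and 1.83-fold for unc-29. Components of the same receptor thus stood in opposite orders, but in the reverse order only unc-63 spanned more than 2-fold.

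Markers of other cell types moved between the columns as well, and their part in the muscle values was not tested. The summed level of 10 germline and oocyte markers was 163755 in wild type and 106221 in e398, and 311603 in u74 and 64213 in u218. Without their most abundant gene, glh-1, the sums were 103926, 33713, 261498 and 31728. The 9 sperm markers summed to 38885, 89201, 47270.1 and 1269.9, and without msp-19 to 29835, 50563, 38665 and 1216. In the same order, 10 neuronal markers summed to 20496, 18030.3, 19317 and 30084, and 8 intestinal markers of 9 listed to 331805, 217678, 338281 and 587750.3. Without snb-1 the neuronal sums were 15123, 15929, 10542 and 19119.7, so that e398 was no longer below wild type. Without asp-1 the intestinal sums were 149620.2, 113454, 131176 and 280314, so that u74 was no longer above wild type. The 8 hypodermal markers summed to 315509.7, 655099.7, 113772 and 277734, of which the collagen gene dpy-13 made most in e398. Without dpy-13 they summed to 117578, 136336, 36921 and 101754, and the median ratio in e398 was -0.01. Of 9 pharyngeal markers, which include tnt-4 and tni-4 of the other muscle list, the sums were 100188, 84772, 96036 and 115674, mostly from the sodium pump gene eat-6. Without eat-6 they were 20224, 21618, 18777 and 16923, and the list's median ratios to wild type were 0.21, -0.53 and -0.65 in e398, u74 and u218. In e398 against wild type the medians ranged from -1.53 for germline to 0.50 for sperm markers. In u74 they ranged from -0.60 for hypodermal to 1.23 for germline markers, and in u218 from -4.97 for sperm to 0.93 for neuronal markers. The order e398 lowest, then wild type, then u74 and u218 held for 6 of the 10 neuronal markers and the opposite order for 2. Opposed orders were thus also seen within a marker list of another tissue.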

How the data were processed

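The deposited table holds a signal per gene and genotype, averaged normalized counts, which the authors made by normalizing read counts and averaging the libraries of each genotype, per the file headers and the table's name. HTSeq, bedtools, DESeq2 and DESeq appear in the submitters' processing notes, with neither versions nor roles. No source used here gives the aligner, build, annotation or strandedness. Depth per library is unknown.

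Symbols, positions and merged exon lengths came from release 115 of the WBcel235 annotation, in which all 46926 identifiers were found. Ratios used a pseudocount of 1 and genes at 20 or more in either column; 2-fold was called higher or lower, with no test. Size factors were read from the lowest values shared by at least 30 genes, a step added after the data were seen. Python 3.11.15, pandas 2.3.3, numpy 2.4.6 and matplotlib 3.10.9 were used. The ratio, filter, call and trimmed mean rescaling were tested on simulated data. The reading of size factors, the midpoint and the orders of columns were not. Other pseudocounts, filters, column scalings (a trimmed mean of log ratios removed 30% of ratios and 5% of levels at each end) and folds were tried. The rule names all 39 members, 3 most abundant genes of each other list and those 4-fold apart; the text names a part of the latter. Members, lists and pairs were chosen with earlier results of these data known.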

Additional observations from a re-analysis of the deposited data

How the results depend on the processing

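Pseudocounts of 0.5 and 10, no filter, and a filter at 100 moved no count of members and no median, and no member past 2-fold changed direction under any alternative. Scaling did matter. With equal column totals the members' median log2 ratios became -0.55 for e398, 0.49 for u74 and 0.78 for u218 against wild type, 0.95 and 1.46 in u74 and u218 against e398, and 0.30 in u218 against u74. Members at least 2-fold lower then numbered 9 in e398 (23.1%, against 19.9% of all genes). In u74 and u218 against wild type they numbered 4 each (10.3%, against 13.1% and 19.3%). Against e398 they numbered 4 each as well (10.3%, against 15.8% and 20.4%). Those higher than wild type numbered 4 in u74 (10.3%, against 23.0%) and 15 in u218 (38.5%, against 17.4%). Those higher than e398 numbered 19 in u74 (48.7%, against 38.9%) and 22 in u218 (56.4%, against 37.4%). Recentring on the median of all genes gave 8 higher and 4 lower in u218 (median 0.55), 9 higher in u74 against e398 (0.29), and medians of 0.83 in u218 against e398 and 0.27 in u218 against u74. The trimmed mean rescaling gave medians of 0.08 in u74 and 0.60 in u218, where 9 were higher and 4 lower, 0.34 and 0.96 against e398, with 9 higher in u74, and 0.55 in u218 against u74, with 3 higher. These shifts follow from the column factors themselves.

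At a threshold of 1.5-fold, 5 of 39 members were higher and 10 lower in e398, against 24.2% and 30.3% of all genes. In u74 13 were lower, against 35.9%, and in u218 10 were higher, against 21.9%. Between mutants, 11 were higher in u74 than in e398, against 35.6%, and 10 in u218 than in u74, against 33.5%. At 4-fold, 0 were lower in e398, against 7.71% of all genes, and 3 in u74, against 17.3%. In u218 0 were higher and 1 lower, against 1.12% and 22.6%. Compared with e398, 4 were lower in u74, against 24.9%. In u218 compared with e398, 4 were higher and 4 lower, against 12.1% and 29.1%. No paired analysis was possible because the columns are genotype averages and carry no replicate numbers, and for the same reason no library could be left out. The lowest average of any member was 478 normalized counts, so low counts did not limit them; the missing spread between libraries did.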
